A study of Mus musculus with 16 samples.

Results

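The regions described here are m6A peaks that stood alone on a highly expressed gene of mouse bone. They were selected on 2 measured values, peaks per gene and expression: a member is a peak whose gene name occurs once in the authors' deposited peak table and whose gene had a mean normalized count of at least 5000 in the authors' deposited RNA table. They are 511 of 13083 peaks, 1 in each of 511 of the 6847 genes with a peak. The RNA came from bone of wild type mice after ovariectomy (OVX), the removal of the ovaries, used as a model of bone loss through lack of estrogen, or after a sham operation (libraries titled NC). There were 4 immunoprecipitated (IP) and 4 input libraries of OVX animals and the same numbers of sham animals, 16 in all. IP means that fragments were captured with an antibody to N6-methyladenosine (m6A); input is RNA that skipped the capture. The treatment field of the labels reads ovariectomy for all 8 IP libraries, also for the 4 titled NC, and groups here follow titles. Whether libraries of an arm came from different animals is not stated in the labels, so the deposited p-values may reflect technical spread only, and the sources used here give no age or strain.

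Bone was represented with its marrow and with muscle. All 7 osteoblast markers had counts, with means between 482 and 99868 in the authors' deposited table, and all 4 osteocyte markers had means between 1275 and 8758. The 7 neutrophil markers had means between 11535 and 225725 and the 5 skeletal muscle markers between 39094 and 336368 in the authors' deposited table. The 5 osteoclast markers ran from 15 to 21688, with Calcr at 15 and Ocstamp at 146. The 6 erythroid markers ran from 2684 to 311988 and the 3 adipocyte markers from 1867 to 18329. For B cells, 4 markers ran from 1693 to 5542 and Ighm had no value. A level in bulk tissue cannot tell fewer cells of a type from less RNA per cell. Both tables hold the authors' own comparisons, so no value for a single library and no depth of a library can be given. Neither table states which arm is the numerator, and signs of differences between OVX and sham animals are given as deposited, as positive or negative.

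m6A is the methyl mark placed on internal adenosines of messenger RNA by the writer complex of Mettl3 and Mettl14, mostly within the DRACH sequence (A, G or T, then A or G, then A and C, then A, C or T). It is known to gather in long internal exons and around stop codons, and to be sparse close to splice junctions, where exon junction complexes keep the writer away. Readers with a YTH domain bind it and can speed the decay of the RNA, and Fto and Alkbh5 remove it. Messages of housekeeping genes with short exons are known to carry little of it.

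Sequence could be shown for a few of the peaks, where a RefSeq gene start lies close by: 13 of 511 peaks had at least 1 base inside a 300-base window around a start in the GRCm38.p6 tables, and 4 had at least 80 bases. All 508 members with an annotated symbol fell within their own gene's span on that build, as did 99.8% of all such peaks. The 2 stretches below are those of at least 80 bases that keep an open reading frame and hold GGAC, the core of the favoured m6A sequence. Capitals mark DRACH matches on the transcribed strand, and bases are given as DNA, read 5′ to 3′. The first is the whole peak of Ddx41, a DEAD box RNA helicase (chr13:55535893-55536040, minus strand). The second is 300 of the 2150 bases of the peak of Apobr, the apolipoprotein B receptor of myeloid cells (chr7:126585768-126586067, plus strand), on ground shared with Cln3.
Ddx41: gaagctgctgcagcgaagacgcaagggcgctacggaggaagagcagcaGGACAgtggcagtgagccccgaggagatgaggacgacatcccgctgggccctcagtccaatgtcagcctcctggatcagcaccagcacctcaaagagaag
Apobr: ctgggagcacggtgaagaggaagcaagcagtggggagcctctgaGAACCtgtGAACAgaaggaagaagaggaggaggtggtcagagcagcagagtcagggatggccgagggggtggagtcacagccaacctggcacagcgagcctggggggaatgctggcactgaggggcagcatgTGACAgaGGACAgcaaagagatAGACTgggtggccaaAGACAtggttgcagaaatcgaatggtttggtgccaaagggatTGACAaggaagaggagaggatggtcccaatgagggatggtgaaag
The Ddx41 peak held 1 DRACH match and an enrichment of 1.37, and the Apobr stretch held 7 matches in a peak with an enrichment of 2.45. Such matches are common: of 32851 windows around RefSeq starts cut to 148 bases, 40.6% held GGAC and 91.9% held DRACH on the strand of the gene, and at 300 bases 65.6% and 98.4% did. A match is therefore a description of the letters and marks no methylated base.

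Peaks per gene varied between groups of highly expressed genes. Of 1964 genes with a mean count of at least 5000, 511 (26.0%) had 1 peak, 937 (47.7%) had several and 516 (26.3%) had none. These numbers are set by the rule and by peak calling and are given as a description. Ribosomal protein, glycolysis and respiratory chain genes mostly had no peak. Among 71 highly expressed ribosomal protein genes, 13 had a sole peak, 3 had several and 55 had none. The 13 include Rpl4, Rpl19, Rpl7 and Rps24, which build the large and small ribosomal subunits. The ribosomal pseudogenes Rps6-ps4 and Rpl14-ps1 were also members, outside this list. Reads of ribosomal protein genes could be split with such copies, which was not tested. Of 13 highly expressed glycolysis genes only Hk1, the hexokinase that starts the pathway, had a sole peak, and the other 12 had none. Of 23 respiratory chain genes, 5 had a sole peak and 17 none. The 5 were Atp5j, Atp5c1, Ndufv3 and Cox7b, subunits of ATP synthase, complex I and cytochrome oxidase, and Cox7a2l, related to an oxidase subunit.

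Most chromatin genes had several peaks, and the other groups below lay closer to the 47.7% of all highly expressed genes. Chromatin genes had 6 sole peaks (among them Hmgn2, Hmgn5 and the deacetylase Hdac2) against 39 genes with several and 5 with none of 50. RNA-binding and splicing genes had 24 sole peaks, 40 with several and 10 with none of 74; the sole ones include the helicase Ddx5, the nucleolar protein Npm1, Rbm3 and Ewsr1. The 50 kinase and phosphatase genes had 17, 26 and 7, with Ppp1r15a, a phosphatase subunit of the stress response, among the sole ones. All 14 zinc finger and immediate early genes had a peak, 6 a sole one, among them Atf4, the stress response factor, and Klf1, the master regulator of red cell genes. Chaperones had 13 sole peaks, 13 with several and 5 with none of 31, with Hspa8, Calr and Canx in the first group. Translation factors and their regulators had 12, 18 and 7 of 37, with Pabpc1, which binds poly(A) tails, and Eef2, the translocation factor, in the first. Ubiquitin and proteasome genes had 7, 18 and 10 of 35, and vesicle coat genes 8, 7 and 5 of 20.

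**Figure D1:**
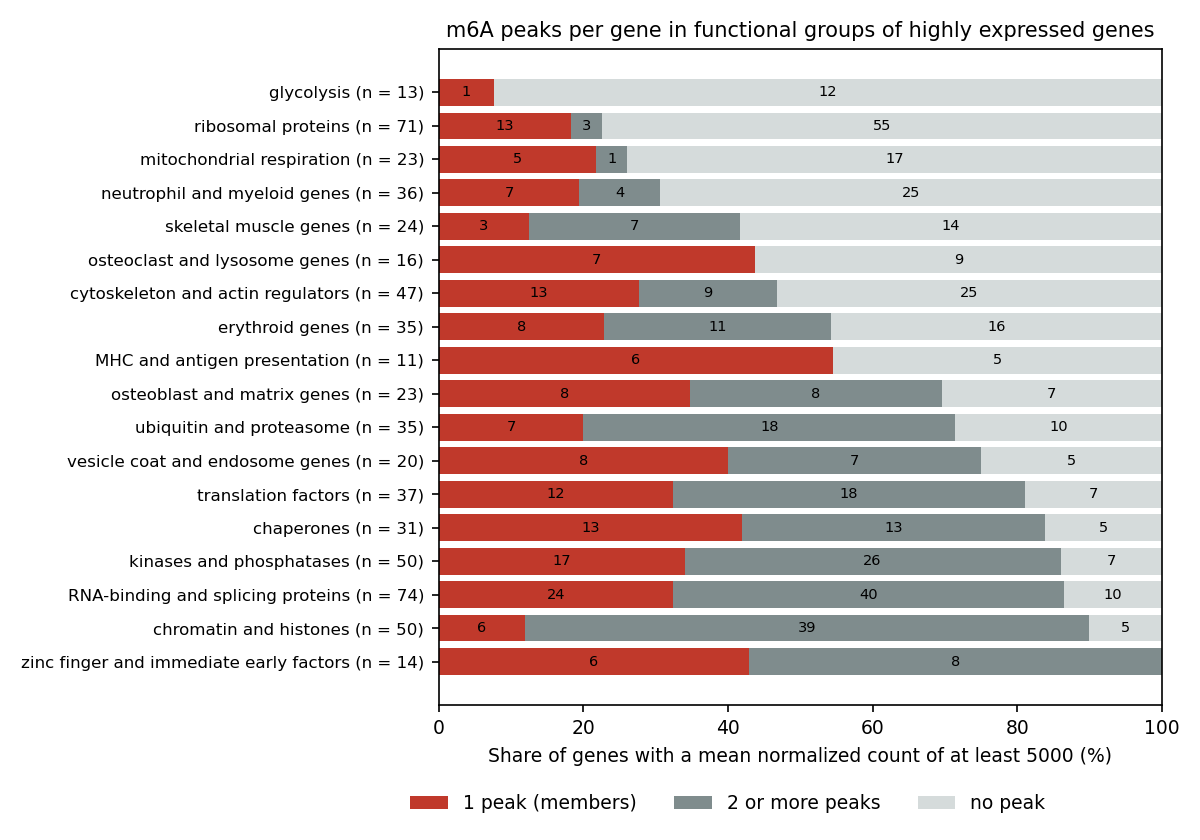
Share of genes with a mean normalized count of at least 5000 that carried 1 m6A peak (red), 2 or more (dark grey) or none (light grey), for functional groups with at least 10 such genes; numbers in bars count genes. Groups run from glycolysis at the top, with 12 of 13 genes without a peak, to zinc finger and immediate early genes at the bottom, with 0 of 14.

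Cell type genes of bone, blood and muscle varied among themselves. Of 36 neutrophil and myeloid genes, 7 had a sole peak, 4 several and 25 none. S100a9, the calcium-binding alarmin of neutrophils, had the highest mean count of all members, and Ncf1, Itgam and Cd177 were others of the 7. Osteoblast and matrix genes had 8, 8 and 7 of 23, the sole ones led by Ibsp and Spp1, acidic proteins of bone matrix, with Col2a1, the cartilage collagen, and Bgn, a proteoglycan. Osteoclast and lysosome genes had 7 sole peaks, with the cathepsins Ctsd, Ctsb and Ctsl and the gelatinase Mmp9 among them, none with several and 9 with none of 16. Antigen presentation genes had 6, 0 and 5 of 11, and the class I genes among them, H2-D1, H2-K1, H2-Q6, H2-T24 and H2-Q4, are close paralogs whose reads could be split. Erythroid genes had 8, 11 and 16 of 35, skeletal muscle genes 3, 7 and 14 of 24, cytoskeleton genes 13, 9 and 25 of 47, and B cell genes 2, 1 and 3 of 6. Of the m6A machinery itself, 8 genes were this highly expressed: Hnrnpc, a nuclear reader candidate, had a sole peak, Alkbh5 had none and 6 had several. In all, 164 of the 511 members were in at least 1 of the 20 groups.

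Enrichment of IP over input, a ratio in the authors' deposited table, was modest and like that of other peaks. Members had a median of 1.80 (quartiles 1.495 and 2.14), against 1.84 for the 3400 peaks of highly expressed genes with several peaks, 1.77 for 3175 sole peaks of other genes and 1.82 for all peaks. A ratio of at least 2 was reached by 174 members (34.1%, exact 95% interval 29.9 to 38.3, counting error only), where 37.3% of all peaks reached it. The peaks were called from this same contrast, so these values are a description. The highest ratios belonged to Ppig, a nuclear cyclophilin, with 4.38, Filip1l with 4.0 and Rb1cc1, an autophagy initiation factor, with 3.86. Next came Ywhah, a 14-3-3 protein, with 3.36, the splicing regulator Tra2a with 3.29, Nucks1 with 3.28, Zfp652 with 3.20 and Cct6a, a chaperonin subunit, with 3.07. The peak of Filip1l lies on ground shared with Cmss1. Shared ground was judged without regard to strand, so whether reads of this peak may be of either gene was not tested. At the lower end, Cyfip2, an actin regulator, had 1.03, Sf3b3, a splicing factor, 1.08, Adipor1, the adiponectin receptor, and Hars, a tRNA synthetase, 1.10, Dut 1.11 and Cd177 1.12.

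Enrichment is given next by functional group, most of them small. The 6 zinc finger and immediate early genes all reached 2 (median 2.21), with Zfp652 at 3.20 and Atf4 at 2.93. The 6 chromatin genes had a median of 2.44, led by Hmgn5 with 2.73, and 13 chaperones one of 2.18. No neutrophil and myeloid gene of 7 reached 2; their median was 1.33, with S100a9 at 1.24, Ncf1 at 1.20 and Itgam at 1.75. The 5 respiratory chain genes had a median of 1.58, the 7 osteoclast and lysosome genes one of 1.59 with Ctsd at 2.30 and Ctsb at 1.25, and the 12 translation factors one of 1.60 with Eef2 at 1.21. Muscle genes lay at 2.53 for Tnnt3, a troponin, 2.01 for Tpm2, a tropomyosin, and 1.70 for Mybpc2. Among bone matrix genes Ibsp had 2.27 and Col2a1 1.20, and of B cell genes Cd24a had 2.97 and Irf8 1.36. Peak length moves with some of these medians: it was 300 bases in chromatin genes and 296 in chaperones, against 149 in neutrophil and myeloid genes and 197 over all members, and its part was not tested. No test was made between groups, since members share their libraries and are not replicates.

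**Figure D2:**
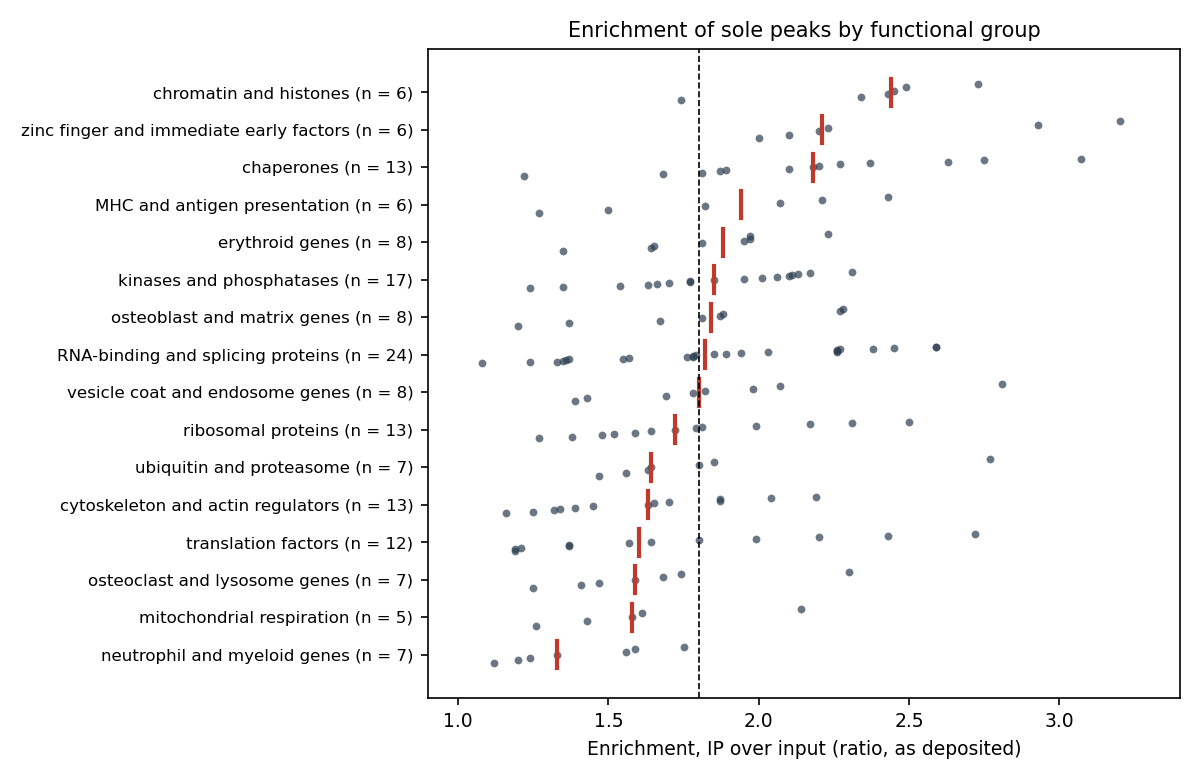
Enrichment of IP over input, as deposited, for each sole peak (points) in functional groups with at least 5 members; red bars are group medians and the dashed line is the median of all 511 members, 1.80. Group medians run from 1.33 for neutrophil and myeloid genes at the bottom to 2.44 for chromatin genes at the top.

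Longer peaks had higher enrichment. Exonic length of members had a median of 197 bases (quartiles 101 and 295.5) and ran from 96 to 2150 bases, and 464 of 511 lengths lay within 5 bases of a multiple of 50. The 141 members of 101 or fewer bases had a median enrichment of 1.42, the 172 of 102 to 200 bases 1.77, the 151 of 201 to 500 bases 2.01 and the 47 longer ones 2.30. Across the 511 members Spearman's rank correlation of enrichment with length was 0.62, as a description, since peaks share libraries and length is set by the same signal; over all peaks it was 0.49. With the mean count it was -0.0007 across members, and the 71 members with a mean of 20000 or more had a median enrichment of 1.81, against 1.78 for the 208 members below 7500. The longest peak, that of Apobr, lay in 1 exon block and had a ratio of 2.45.

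**Figure D3:**
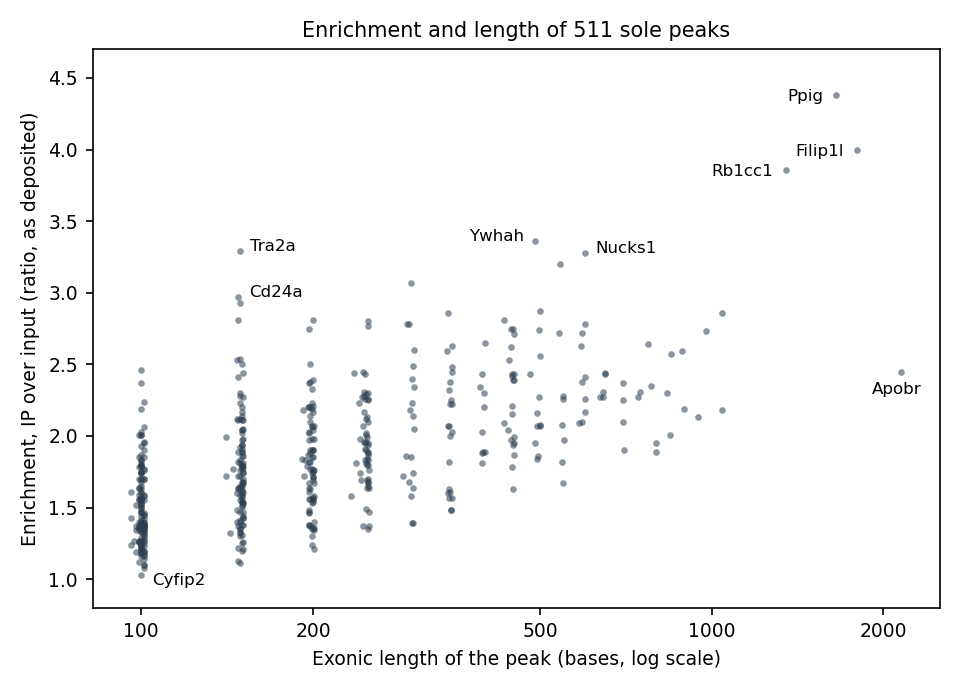
Enrichment of IP over input against the exonic length of each of the 511 sole peaks (length on a log scale). Median enrichment goes from 1.42 at 101 or fewer bases to 2.30 above 500 bases; Ppig, Filip1l and Rb1cc1 combine lengths of 1350 to 1797 bases with the highest ratios.

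Sole peaks of highly expressed genes often crossed splice junctions. Of 511 members 315 (61.6%, exact 95% interval 57.3 to 65.9) covered at least 2 exon blocks, against 52.9% (51.2 to 54.6) of peaks of highly expressed genes with several peaks, 35.2% of sole peaks of other genes and 40.1% of all peaks. Ssb, the La protein that binds new RNA ends, had a peak of 10 blocks and 1044 exonic bases. Col6a2, a collagen VI chain, had 11 blocks in 548 bases, and Tpm2 had 10 in 845. Median enrichment did not rise steadily with block number. It was 1.76 for the 196 members in 1 block, 1.655 for the 140 in 2, 1.80 for the 97 in 3 and 2.08 for the 78 with 4 or more. The part of exonic length in these medians was not tested. The median mean count was 8285 for member genes, 9063 for highly expressed genes with several peaks and 1047 for other genes with a sole peak, and the part of expression in these shares was not tested.

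Counted per peak, sole peaks lay closer to the 3' end of their gene than peaks that shared a gene. Within 1000 genomic bases of the gene's 3' end were 123 of 508 members (24.2%, exact 95% interval 20.5 to 28.2), against 8.81% (7.88 to 9.81) of peaks in highly expressed genes with several peaks and 29.3% (27.7 to 30.9) of sole peaks of other genes. The median distance was 2998.5 bases for members and 11179.5 bases for peaks of the several-peak genes. A gene with several peaks enters once per peak, with 3400 peaks in 937 genes. The rule itself therefore bears on this contrast, and no share per gene was computed. Gene spans differed too, with medians of 21710 bases for members and 45601 bases for highly expressed genes with several peaks, and the part of gene length was not tested. Scaled to the gene's span from start to end, the medians were alike, 73.2% for members and 73.0% for peaks of the several-peak genes. Ctsd and Rpl4 had their peak 98 bases from the gene's end, Atf4 and Ucp2 148 bases. At the other end, of 406 members with a start in the RefSeq table, 2 had a peak over that single base, and no share over all peaks is given for this. The centre of the peak lay in the first 20% of the gene's span for 8.07% of members and 8.62% of all peaks.

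**Figure D4:**
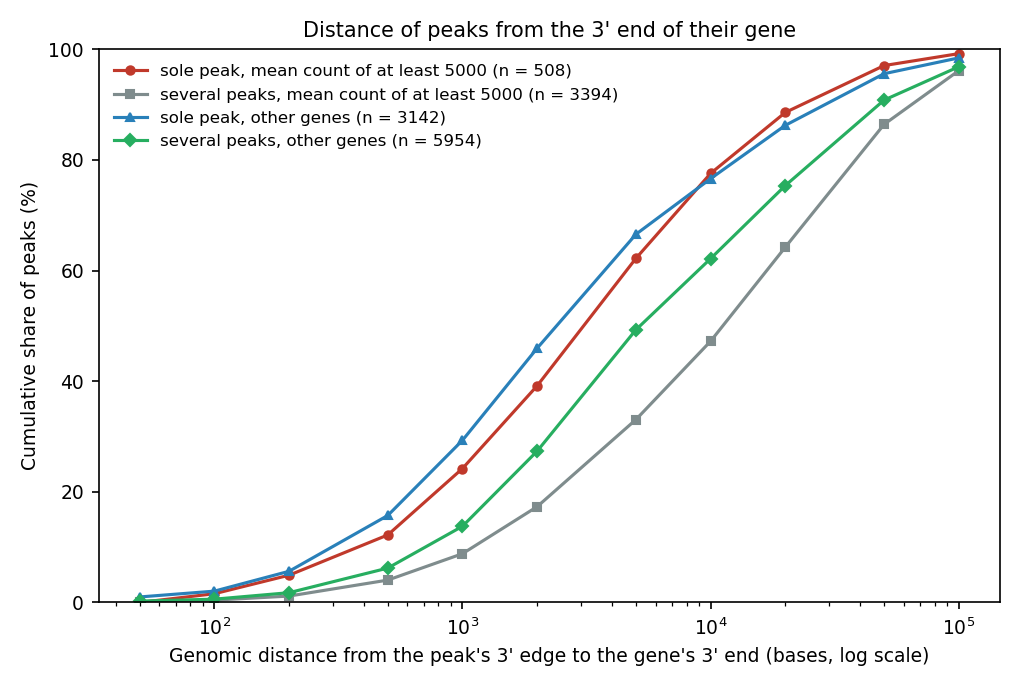
Cumulative share of peaks within a given genomic distance of the 3' end of their gene (log scale) for sole peaks of genes with a mean count of at least 5000 (red) and for the 3 other classes of peaks. At 1000 bases the shares of peaks are 24.2% for members, 8.81% for peaks of several-peak genes of that expression, and 29.3% for sole peaks of other genes.

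The m6A difference between OVX and sham animals was small in most members. The log2 differences of enrichment had a median of 0.07 and quartiles of -0.02 and 0.15 in the authors' deposited table, from -0.65 to 0.52, and 366 were positive and 145 negative. Positive differences were also the more common over all peaks, 60.6% against 71.6% of members. A p under 0.05 was given to 49 members (9.59%, exact 95% interval 7.18 to 12.5) in the authors' deposited table, where 4.92% of all 13083 peaks and 7.41% (6.55 to 8.34) of peaks of highly expressed genes with several peaks had one. Of the 49, 36 were positive and 13 negative, beside 3.6% and 1.32% of all peaks. No member reached an FDR under 0.05 in the authors' deposited table, where 0.0229% of all peaks did; the caller of these differences is not given in the sources used here. Of the 49 differences 8 were under 0.1 in size, 31 between 0.1 and 0.3, and 10 larger.

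The positive differences with the smallest p were in genes of varied roles. Dnajc8, a J-domain protein of the spliceosome, had a difference of 0.24 (p = 2.09e-05, FDR = 0.0631) in the authors' deposited table, in a peak of 7 exon blocks. Osbpl9, an oxysterol-binding protein, had 0.33 (p = 3.55e-05) in the authors' deposited table. Next among the positive ones were Caprin1, an RNA-binding protein of stress granules, with 0.15, Mns1, a protein of cilia and sperm tails, with 0.15, and Ssb with 0.22 in the authors' deposited table. Dnaja1, a co-chaperone, had 0.07, Rb1cc1 0.26 and Rpl7 0.11, with p between 0.00339 and 0.00372 in the authors' deposited table. Of these 8 peaks 5 covered 4 or more exon blocks, those of Dnajc8, Caprin1, Mns1, Ssb and Dnaja1, where 15.3% of members and 7.14% of all peaks did. Over all peaks, calls were more common in such peaks. A p under 0.05 was given to 3.49% of all peaks in 1 block and to 12.3% of those in 4 or more. Among members these shares were 7.65% and 11.5% in the authors' deposited table. Members in 2 blocks had 11.4% and those in 3 had 9.28%, so there was no steady rise.

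Negative differences were fewer and in part larger. Ucp2, an uncoupling protein of the inner mitochondrial membrane, had -0.40 (p = 4.57e-04) in the authors' deposited table. Polr2a, the largest subunit of RNA polymerase II, had -0.53 and Pirb, an inhibitory receptor of myeloid cells, -0.39, both with p = 0.00646 in the authors' deposited table. Reads of Pirb could be shared with its near-identical relatives. Rpl10a had -0.16, the late endosome GTPase Rab7 -0.26 and Tuba4a -0.07 in the authors' deposited table. Arhgap23, a GTPase-activating protein, had the most negative difference of any member, -0.65 (p = 0.0214), and Mxd1, a partner of Max, had -0.15 (p = 0.0229) in the authors' deposited table. Arhgap23 and Polr2a were the only members to combine p under 0.05 with a size of at least 0.5. Bone matrix genes had 1 call of 8 members, Spp1 with 0.15 (p = 0.0245), and neutrophil genes 1 of 7, the collagenase Mmp8 with 0.24 (p = 0.0200), in the authors' deposited table. Ribosomal proteins had 3 of 13 and ubiquitin and proteasome genes 3 of 7. Erythroid, antigen presentation, respiratory chain and zinc finger members had none, and neither did the 24 RNA-binding and splicing members. Beside these stand 9.59% of all members and 4.92% of all peaks. Most groups are small and no member reached an FDR under 0.05, so nothing is read from counts per group.

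**Figure D5:**
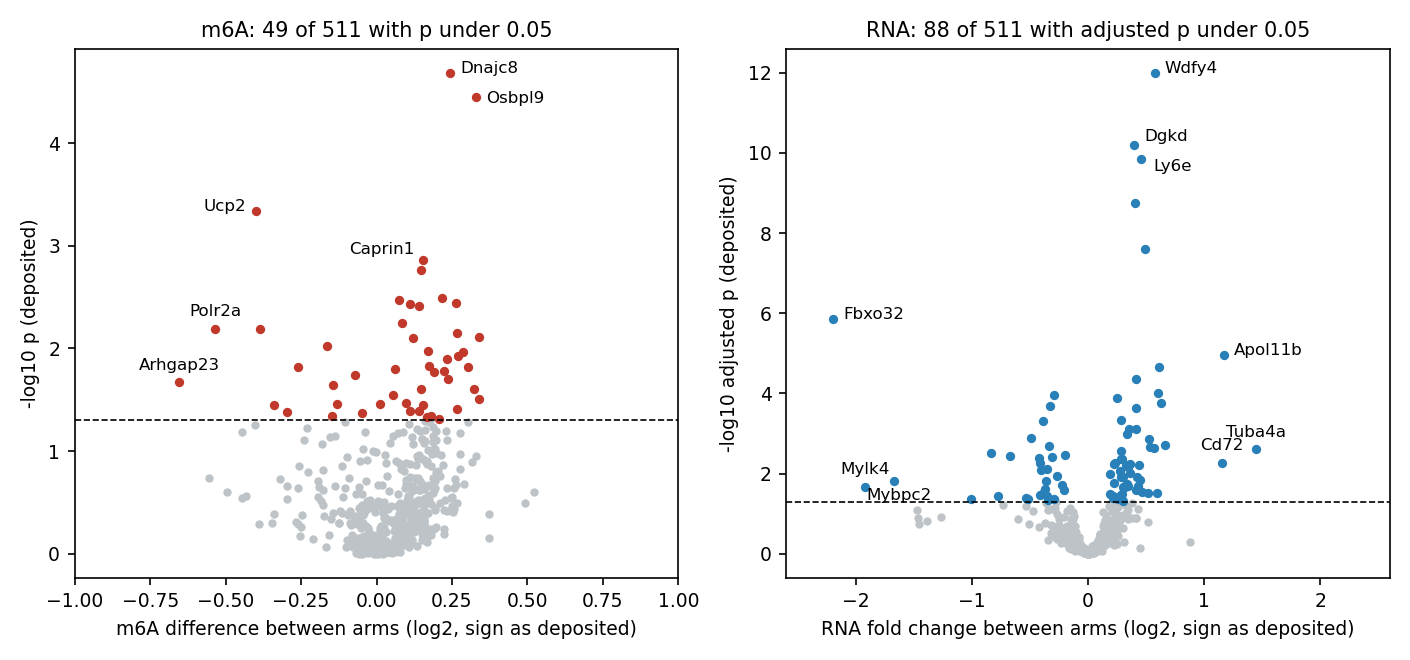
The 511 sole peaks and their genes by deposited difference between OVX and sham animals (x axes, log2, sign as deposited) and its p (y axes, -log10). On the left 49 peaks with a p under the dashed threshold are red, and on the right 88 genes with an adjusted p under it are blue; most points lie close to a difference of 0.

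RNA of member genes passed the test about as often as RNA of all highly expressed genes. Of 511 genes, 88 (17.2%, exact 95% interval 14 to 20.8) passed an adjusted p of 0.05 by the authors' deposited table, where 12.2% of all 15396 tested genes and 16.1% of 1963 tested genes with a mean count of at least 5000 did. Of the 88, 58 were positive and 30 negative, beside 9.83% and 6.32% of these highly expressed genes and 6.07% and 6.11% of all genes. Highly expressed genes without a peak were called at 17.5%. Fold changes were small, under 0.5 on the log2 scale in 66 of the 88 genes, and 7 reached 1 in either direction.

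Negative calls included genes known from muscle and from mitochondria, beside others. Fbxo32, the ubiquitin ligase atrogin-1 of muscle atrophy, had -2.20 ± 0.38 (SE, adjusted p = 1.43e-06) in the authors' deposited table. Mylk4, a myosin light chain kinase family member, had -1.92 ± 0.61 and Mybpc2, a thick filament protein of fast muscle, -1.67 ± 0.51 in the authors' deposited table. Slc25a4, the ADP/ATP carrier of muscle mitochondria, had -1.01 ± 0.36 and Vdac1, the pore of the outer mitochondrial membrane, -0.53 ± 0.19 in the authors' deposited table. Tnnt3 and Tpm2 had -1.47 ± 0.59 (adjusted p = 0.0788) and -1.26 ± 0.55 (adjusted p = 0.118), past no threshold, in the authors' deposited table. Skeletal muscle markers as a whole moved with these values, with 29 of 30 tested genes negative and 7 of them past the threshold (median -1.29) in the authors' deposited table, and the part of muscle content in the result was not tested. Of 5 respiratory chain members 4 passed, all negative, among them Ndufv3 with -0.39 ± 0.09 and Atp5c1 with -0.29 ± 0.06 in the authors' deposited table; of the whole list 22 of 96 passed with a negative sign and 1 with a positive one. Mmp13, the collagenase of bone and cartilage, had -0.83 ± 0.22, Igbp1, a phosphatase-binding protein, -0.78 ± 0.27 and Ccng1, a cyclin, -0.67 ± 0.18 in the authors' deposited table. Mmp13 was the only 1 of 8 osteoblast and matrix members that passed. The whole osteoblast and matrix list had 6 calls among 50 tested genes, 3 positive and 3 negative. By sign alone, 36 of the 50 were negative and 14 positive. Ctsl was the osteoclast and lysosome member that passed, with -0.52 ± 0.18 in the authors' deposited table, and all 7 members of that list were negative. The whole list was negative in 29 of 37 tested genes, 6 of them past the threshold, and 8 were positive.

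The largest positive fold changes were in genes of varied roles. Tuba4a, an alpha tubulin, had 1.45 ± 0.37, Apol11b, an apolipoprotein L family member, 1.17 ± 0.22 and Cd72, an inhibitory receptor of B cells, 1.16 ± 0.32 in the authors' deposited table. Dmtn and Epb42, proteins of the red cell membrane skeleton, had 0.66 ± 0.16 and 0.63 ± 0.13 in the authors' deposited table. With Klf1 (0.54 ± 0.14) and Bcl2l1 (0.43 ± 0.14, a survival factor of red cell precursors), 4 of 8 erythroid members passed in the authors' deposited table, each of them positive. In the whole erythroid list 14 of 43 tested genes passed, all positive. Lrmp, an endoplasmic reticulum protein of lymphocytes, had 0.61 ± 0.12, and Trim25, a ubiquitin ligase of antiviral signalling, 0.60 ± 0.12 in the authors' deposited table. Antigen presentation members passed in 3 of 6 cases, H2-T24 (0.60 ± 0.20), H2-Q6 (0.53 ± 0.13) and the peptide loading factor Tapbp (0.24 ± 0.06), all positive in the authors' deposited table. Their whole list had 8 calls among 41 tested genes, also all positive. B cell markers, of which neither member passed, were positive in 15 of 19 tested genes (median 0.59). Of these 19 genes 12 passed, 11 positive and 1 negative, in the authors' deposited table. The part of B cell markers in the values of Cd72 and Lrmp was not tested. Wdfy4, chosen like Dgkd and Ly6e after values were seen, had the smallest adjusted p of the authors' deposited table among members, with 0.57 ± 0.07 (SE, adjusted p = 1.04e-12 from the model over all genes).

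Zinc finger and immediate early members passed in 4 of 6 cases, all positive: Klf1, Btg2 (0.46 ± 0.15), Atf4 (0.30 ± 0.09) and Btg1 (0.26 ± 0.09) in the authors' deposited table. The whole list had 35 calls among 445 tested genes, 25 positive and 10 negative. Of 24 RNA-binding members 3 passed with a positive sign, and Rbm3, a cold-inducible protein, passed with -0.42 ± 0.14 in the authors' deposited table. That list as a whole had 22 calls among 152 tested genes, 18 positive and 4 negative. Chaperones had 2 positive calls and 1 negative of 13, cytoskeleton genes 2 positive of 13, and translation factors, kinases and phosphatases, ubiquitin and proteasome, chromatin and glycolysis genes 1 positive each. Over the whole lists, 14 of 85 tested chaperones passed, 12 of 80 cytoskeleton genes, 2 of 72 translation factors and 28 of 266 kinases and phosphatases. Of ubiquitin and proteasome genes 13 of 133 passed, of chromatin genes 16 of 112 and of glycolysis genes 5 of 23. No member on the ribosomal protein, vesicle coat, neutrophil and myeloid or B cell lists passed, and Hnrnpc of the m6A machinery did not. Of all tested genes on these lists, 5 of 85 ribosomal protein, 12 of 130 vesicle coat and 6 of 59 neutrophil and myeloid genes passed. The B cell list is given above. The machinery list as a whole had 6 positive calls and 1 negative of 26 tested genes in the authors' deposited table.

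Both calls met in 6 members (1.17%), beside 0.773% of all 13058 peaks whose gene had a tested fold change and 0.912% of peaks of highly expressed genes with several peaks. The input libraries enter both comparisons, so nothing is read from these shares and the values are set side by side. Ucp2 had an m6A difference of -0.40 and an RNA value of 0.41 ± 0.10 (log2 fold change and SE) in the authors' deposited table. Usp19, a deubiquitinase, had -0.15 in m6A and 0.28 ± 0.07 in RNA, and Tuba4a -0.07 and 1.45 ± 0.37, in the authors' deposited table. Osbpl9 had 0.33 in m6A and -0.26 ± 0.08 in RNA, and Lilrb4a, an inhibitory receptor with close relatives, 0.27 and -0.42 ± 0.11, in the authors' deposited table. Drap1, a repressor of basal transcription, was negative in both, with -0.05 in m6A and -0.33 ± 0.08 in RNA in the authors' deposited table.

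The 8 members with the highest mean counts had no RNA call, where 17.2% of all members had one, and 8 genes are too few to set against that share. S100a9 (mean count 225725) had an m6A difference of 0.02 and an RNA log2 value of -0.34 ± 0.27 in the authors' deposited table. Pabpc1 (114779) had 0.16 and 0.16 ± 0.14, Eef2 (104503) -0.02 and 0.03 ± 0.07, and Tpt1, a growth-related protein (100743), 0.06 and -0.10 ± 0.06 in the authors' deposited table. Hspa8 (99039), Tnnt3 (95314), Tpm2 (87412) and Calr (77208) complete the 8; means are counts per gene and not per length. Tnnt3 and Tpm2 had the large but uncalled RNA values given above, Hspa8 had 0.24 ± 0.09 and Calr 0.13 ± 0.13 in the authors' deposited table. Of these 8, Pabpc1 (p = 0.0355) and Tpt1 (p = 0.0158) had an m6A call in the authors' deposited table, beside 9.59% of all members. Just inside the threshold of 5000 lay Gpbp1l1 with 5003 counts and a ratio of 1.85, Irf2bp2 with 5005 and 1.36, and Myot with 5018 and 1.60. Just outside it lay Ppp1r2 with 4994.5 counts and a ratio of 2.46, Abr with 4983 and 1.76, and Septin1 with 4968 and 1.43.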

How the data were processed

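The peak table and the RNA table hold the authors' comparisons, per the file headers. Per peak, the authors deposited a p-value with its log10 form and log10 FDR, a ratio of IP to input (the enrichment), and a log2 difference between arms whose log10 p and FDR columns are treated as a score. Other columns, as deposited, give exon blocks. Per gene, the authors deposited a mean normalized count (a signal), the log2 fold change, its SE and statistic (a score), and the p-value before and after adjustment. HISAT2, StringTie, DESeq and rn6 are named, without roles or versions, in the submitters' processing notes; the peak caller is not given in the sources used here. The labels' protocols describe a stranded kit with molecular identifiers.

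Members, summaries and exact 95% binomial intervals (counting error only) were computed with pandas 2.3.3, numpy 2.4.6 and scipy 1.17.1 on Python 3.11.15, and figures with matplotlib 3.10.9. No test was run here, since no per-library values were at hand; calls are deposited p or adjusted p under 0.05. Starts are printed counted from 1. Gene spans, used for distances only, and start windows (250 bases before to 50 after a start) are from RefSeq, GRCm38.p6. The selection was tested on simulated data. The members and the 20 functional lists were chosen with earlier results of these data known; some results are not reported here. Named were members with the highest and lowest enrichment, highest mean count, smallest m6A p and largest RNA change by sign, both calls, and up to 4 per list by mean count. Position relative to the stop codon and motif shares over all peaks were planned and not analysed here.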

Additional observations from a re-analysis of the deposited data

How the results depend on the processing

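Counts followed their thresholds. The 49 m6A calls became 17 at p under 0.01 (3.33% of members, 1.44% of all peaks), 2 with a log2 difference of at least 0.5 as well, 74 of 1109 sole peaks (6.67%) at a mean count of at least 2500 and 20 of 210 (9.52%) at 10000. The 88 RNA calls became 47 at adjusted p under 0.01, 22 with a log2 fold change of at least 0.5 as well, 179 (16.1%) at a mean count of at least 2500 and 30 (14.3%) at 10000. The 6 members with both calls became 2 at an m6A p under 0.01. The share past the enrichment threshold became 75% at a ratio of at least 1.5, where 78.8% of all peaks stood. The alternative's own construction, fewer or more peaks and genes admitted, sets these counts. The median enrichment lay between 1.76 and 1.82 under the 4 alternatives run, and the 95% interval of the main median was 1.75 to 1.84. Each alternative is a part of the members or contains them, so nothing is read from their closeness. The interval treats peaks as independent, though they share libraries. Without the 12 members on ground shared with another annotated gene on either strand, chosen after seeing the data, there were 48 m6A and 86 RNA calls. Of the 12, 1 member, Fam49b, shares its ground only with its own newer symbol Cyrib. No paired analysis was possible because the tables hold no value for a single library, and left-out libraries could not be run for the same reason. The alternatives on transcript position and on GGACT or DRACH over whole peaks were not run.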

Other observations

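Some small families were grouped after the members were seen, and are given as values. Of 5 highly expressed 14-3-3 genes, adaptors that bind phosphorylated proteins, 4 had a sole peak and Ywhag had 2. Enrichment in this family ran from 1.23 in Ywhaz to 3.36 in Ywhah, and none of the 4 had an m6A or RNA call in the authors' deposited table. Of the 6 subunits of the MCM helicase, which unwinds DNA for replication, 4 had a sole peak (Mcm2, Mcm3, Mcm6 and Mcm7) and Mcm4 and Mcm5 had none. Their RNA fold changes lay between 0.18 and 0.34, each above 0 in the authors' deposited table, and none passed. Of 4 tropomyosin genes 3 had a long sole peak, Tpm3 of 8 exon blocks with 2.78, Tpm4 of 8 blocks with 2.37 and Tpm2 of 10 blocks with 2.01, while Tpm1 had 3 peaks. Of 12 highly expressed cytosolic tRNA synthetases 5 had a sole peak, of which Aars (0.40 ± 0.06) and Vars (0.34 ± 0.11) had a positive RNA call in the authors' deposited table.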
